A study of Mus musculus with 17 samples.

Results

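The genes described here are those of glycolysis, of gluconeogenesis and of the polyol pathway, with the enzymes that pass pyruvate to mitochondria and the regulators of the pathway. The list names 41 mouse gene symbols. They were matched through the GENCODE annotation of GRCm38 to 42 rows of a table of raw read counts with 53379 gene rows, because the symbol Aldoa is carried by a second gene ID just upstream of the first. All 42 rows passed the filter on low counts, which left 17766 genes. By role, 18 rows are glycolytic enzymes, 8 belong to gluconeogenesis and glucose release, 7 to pyruvate entry and its kinases, 6 are regulators and 3 belong to the polyol and fructose branch.

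Glycolysis breaks glucose down to pyruvate, and gluconeogenesis builds glucose from lactate, glutamine and other precursors through its own enzymes at the steps that glycolysis cannot run backwards. In the kidney, gluconeogenesis takes place in the proximal tubule, which holds Pck1, Fbp1 and G6pc and makes little use of glucose itself. Most other cells of the cortex, those of the glomerulus included, rely on widespread isoforms such as hexokinase 1 (Hk1), aldolase A (Aldoa), pyruvate kinase M (Pkm) and lactate dehydrogenase A (Ldha). The tubule and the liver carry the liver-type pyruvate kinase (Pklr). In the polyol pathway aldose reductase (Akr1b3) reduces glucose to sorbitol, sorbitol dehydrogenase (Sord) oxidises sorbitol to fructose, and ketohexokinase (Khk) phosphorylates fructose.

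Poly(A) RNA was sequenced from cortex enriched for glomeruli in 3 groups of BTBR mice. The first group was 7 ob/ob mice, which lack working leptin through the ob mutation in Lep, given atrasentan, an endothelin A receptor antagonist, at 5 mg per kg per day in drinking water from 18 to 24 weeks of age. The second was 5 ob/ob mice given saline over the same 6 weeks, and the third was 5 wild type mice killed at the same age, for which the labels name no treatment. All 3 groups share the BTBR background, and the ob mutation leads to obesity and diabetes on it. The genotype labels are 'BTBR ob' for atrasentan, 'ob/ob-d30' for saline and 'WT-d30' for wild type mice. No source used here explains d30, which the atrasentan label lacks. All libraries are labelled as batch 1, but the library numbers follow the groups, so the order of preparation and the group cannot be told apart.

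Gene reads per library numbered 37252939 to 52528747 with atrasentan, 35938445 to 40268662 with saline and 29161833 to 40965108 in wild type. The atrasentan libraries stood apart in the share of reads outside genes, at 3.17% to 5.65%, against 5.95% to 8.17% in saline and 6.26% to 8.58% in wild type libraries. They also had fewer genes with a read, 21396 to 23081, against 24335 to 25313 in saline and 23901 to 24877 in wild type libraries. The 12 podocyte markers were present in every group, with summed levels of 2547 to 5628 CPM with atrasentan, 5136 to 10226 CPM with saline and 9191 to 14557 CPM in wild type, where CPM is counts per 1000000 gene reads after TMM scaling. Cells of the tubule were present as well: 14 proximal tubule markers, none of them among the 41 symbols and none at 0, summed to 188 to 1603 CPM with atrasentan, 1965 to 9301 CPM with saline and 1168 to 2588 CPM in wild type. In such bulk tissue, fewer cells of a type and less RNA per cell cannot be told apart.

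Reads that aligned to several places were not counted, so genes with near-identical copies are understated. Of the 50-base windows of each gene's coding transcripts, 79.4% were shared with another gene for Akr1b3, 68.0% for Pgk1, 58.4% for Gapdh, 49.5% for Eno1, 41.5% for Pgam1 and 31.3% for Sord. Gapdh, a glycolytic enzyme with many pseudogene copies, was counted at only 3.27 to 10.9 CPM over all libraries. None of the windows of Fbp1, Fbp2, Pck1, G6pc, Slc37a4, Pcx and Khk was shared.

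Levels can be compared between genes only per length, here as mean CPM per kilobase of exon. In the atrasentan, saline and wild type groups Aldoa stood at 402, 340 and 263 CPM per kilobase. Ldha, the isoform that favours making lactate, stood at 144, 140 and 105 in the same order, Pkm at 53.9, 48.8 and 42.2, and Hk1 at 36.5, 29.2 and 25.6. Hexokinase 2 (Hk2), the isoform of muscle and fat, was barely counted, at 0.0946, 0.0560 and 0.0892 CPM per kilobase. The second Aldoa row was likewise low, at 0.832, 0.827 and 1.04 CPM per kilobase.

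The tubule isoforms were spread over a wider range between groups. Fbp1, the fructose bisphosphatase of liver and kidney, stood at 44.3 CPM per kilobase in atrasentan, 418 in saline and 83.1 in wild type libraries. Pck1, the cytosolic phosphoenolpyruvate carboxykinase, stood at 45.0, 313 and 56.5 in that order. Pklr was low in all groups, at 0.419 in atrasentan, 4.89 in saline and 0.753 in wild type libraries. The regulator with the highest level was Txnip, an arrestin-like protein that limits glucose uptake and is induced by glucose, at 509, 392 and 378 CPM per kilobase.

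**Figure D1:**
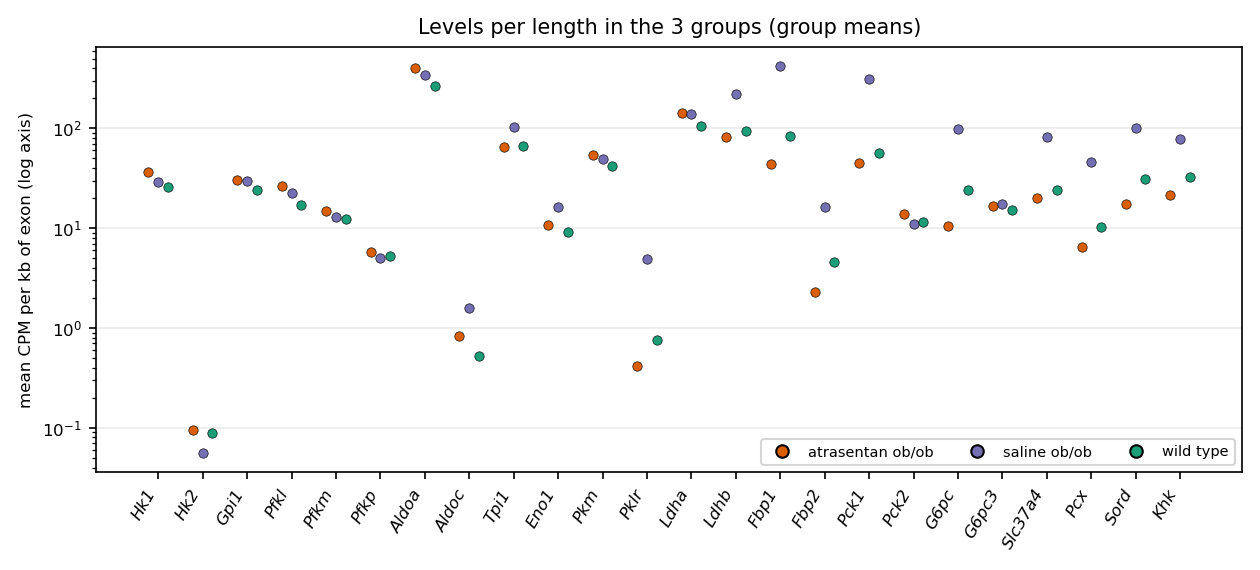
Mean level per kilobase of exon (log axis) of 24 of the genes in atrasentan-treated ob/ob, saline-treated ob/ob and wild type mice, 1 point per group mean. The widespread isoforms Hk1, Aldoa, Pkm and Ldha lie close together across groups, while the 3 points of Fbp1, Pck1, G6pc, Pklr and Sord are far apart with saline on top.

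Promoters of 40 of the 41 genes were found in RefSeq (GRCm38.p6), 64 promoters in all, and each was searched on both strands over the 250 bases before the start site. Shown here are those of G6pc, Pck1, Pklr and Txnip, a pair of well studied gluconeogenic promoters and the only promoters of the set with a carbohydrate response element, with the motif matches in capitals. The motifs were GTTAAT (the core of the site of the tubule and liver factor HNF1), TGACG (the core of the cAMP response element), CAAAGTCCA (HNF4) and CACGNG followed after 5 bases by CNCGNG (the carbohydrate response element, bound by the glucose-sensing factor encoded by Mlxipl).
G6pc, chr11:101367466-101367715, plus strand: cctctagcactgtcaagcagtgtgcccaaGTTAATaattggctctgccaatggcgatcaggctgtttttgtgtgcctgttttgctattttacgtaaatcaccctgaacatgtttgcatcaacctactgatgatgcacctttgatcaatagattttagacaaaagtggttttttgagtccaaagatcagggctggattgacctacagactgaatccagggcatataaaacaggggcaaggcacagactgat
Pck1, chr2:173152823-173153072, plus strand: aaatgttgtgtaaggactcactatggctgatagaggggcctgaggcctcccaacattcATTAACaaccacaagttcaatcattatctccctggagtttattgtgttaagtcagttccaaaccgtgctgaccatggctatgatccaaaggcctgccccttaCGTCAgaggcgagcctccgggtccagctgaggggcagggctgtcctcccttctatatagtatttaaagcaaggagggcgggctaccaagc
Pklr, chr3:89136373-89136622, plus strand: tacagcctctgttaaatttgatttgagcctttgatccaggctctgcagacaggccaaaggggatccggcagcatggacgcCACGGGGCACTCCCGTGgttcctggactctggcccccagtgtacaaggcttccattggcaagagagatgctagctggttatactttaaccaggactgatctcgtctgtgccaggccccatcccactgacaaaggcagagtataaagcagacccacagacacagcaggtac
Txnip, chr3:96557707-96557956, plus strand: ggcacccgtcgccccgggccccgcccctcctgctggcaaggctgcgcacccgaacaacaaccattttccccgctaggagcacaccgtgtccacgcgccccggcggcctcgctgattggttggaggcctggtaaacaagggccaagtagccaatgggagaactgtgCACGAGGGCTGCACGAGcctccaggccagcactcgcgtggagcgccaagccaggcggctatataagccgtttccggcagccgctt
The G6pc window held GTTAAT at -221 from the start site. The Pck1 window held GTTAAT at -192 and TGACG at -90, both on the minus strand. The carbohydrate response element matched at -170 in Pklr, at the downstream one of its annotated starts and on both strands, and at -85 in Txnip.

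Over all 32851 promoters of this length, 6.43% held GTTAAT, 17.8% held TGACG, 0.384% held CAAAGTCCA and 0.280% held the carbohydrate response element. Of the 64 promoters of these genes, 5 held GTTAAT (G6pc, Pck1, Khk, Pdha1 and Pfkfb1), 14 held TGACG, 0 held CAAAGTCCA and 2 held the carbohydrate response element. A match is a string of letters and was not tested as a site.

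In saline-treated ob/ob mice the genes that rose were mainly those of glucose production and of the fructose branch. With edgeR's quasi-likelihood test and an adjusted p under 0.05 over all genes tested, 10 of the 42 rows were higher than in wild type (23.8%), 0 were lower (0 with DESeq2 or limma-voom as well) and 32 did not pass. At the adjusted p, 3.21% of all genes tested were called higher, 1.91% lower and 5.12% in either direction. At an unadjusted p under 0.05, 24 rows were higher and 1 (Akr1b3) was lower. Of all 17766 genes tested, 3825 passed that unadjusted threshold in either direction. The median log2 fold change was 0.46 over the 42 rows and 0.01 over all genes. By role, 4 of 8 genes of gluconeogenesis rose, 2 of 3 of the polyol and fructose branch, 3 of 18 of glycolysis, 1 of 7 of pyruvate entry and 0 of 6 regulators.

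Fbp1 stood at 1382, 273, 1102, 216 and 584 CPM in the 5 saline libraries, against 99.98, 148, 137, 204 and 117 CPM in the 5 wild type libraries. Every saline value lay above every wild type value, though the lowest saline and highest wild type values were close, and saline libraries 1 and 3 were far above the rest. The log2 fold change was 2.33 ± 0.54 (SE), with an edgeR adjusted p of 0.0242. Pcx, the pyruvate carboxylase that starts gluconeogenesis from pyruvate, stood at 408, 89.0, 362, 67.6 and 163 CPM with saline, against 46.1, 39.5, 45.3, 83.5 and 27.6 CPM in wild type. Its groups overlapped, with saline library 4 below wild type library 4, and the log2 fold change was 2.17 ± 0.60 (adjusted p = 0.0464).

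Slc37a4, which carries glucose 6-phosphate into the endoplasmic reticulum for glucose release, rose by a log2 fold change of 1.75 ± 0.34 (adjusted p = 0.0119), and its groups did not overlap. It was the only one of the 10 that passed in all 17 fits that left out 1 library each (highest adjusted p 0.0375). Fbp2, the muscle-type bisphosphatase, stood at 43.7, 8.86, 38.6, 8.45 and 21.3 CPM with saline, against 4.59, 7.57, 6.32, 8.70 and 6.13 CPM in wild type. Its groups overlapped narrowly, and the log2 fold change was 1.86 ± 0.51 (adjusted p = 0.0451). Skeletal muscle markers summed to at most 0.483 CPM in any library.

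Pck1 and G6pc were higher on average without passing. Pck1 stood at 289 to 2279.8 CPM with saline, against 108 to 323 CPM in wild type (log2 fold change 2.47 ± 0.73, adjusted p = 0.0558). G6pc, the catalytic subunit of glucose 6-phosphatase in liver and kidney, stood at 64.4 to 540.5 CPM with saline, against 35.2 to 90.1 CPM in wild type (2.04 ± 0.65, adjusted p = 0.0734). The widespread partners did not move by as much: the log2 fold change was -0.06 for Pck2, the mitochondrial carboxykinase, and 0.19 for G6pc3, the ubiquitous phosphatase subunit, with adjusted p of 0.807 and 0.478.

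In the polyol and fructose branch, Sord stood at 433, 97.8, 373, 87.5 and 207 CPM in the saline libraries, against 59.7, 73.2, 79.3, 93.6 and 60.4 CPM in wild type. All but the lowest saline library lay above wild type, and the log2 fold change was 1.71 ± 0.44 (adjusted p = 0.0339). Khk stood at 239.6, 69.6, 211, 62.3 and 126 CPM with saline, against 40.3, 72.7, 57.0, 68.5 and 51.0 CPM in wild type (1.29 ± 0.34, adjusted p = 0.0390), again with an overlap at saline libraries 2 and 4. Akr1b3, the entry enzyme of the pathway, stood at 16.7, 14.6, 17.7, 19.996 and 18.5 CPM with saline, against 21.0, 26.9, 21.1, 17.9 and 22.2 CPM in wild type. Its groups overlapped, it did not pass (-0.32 ± 0.12, adjusted p = 0.131), and most of its sequence is shared with other genes.

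**Figure D2:**
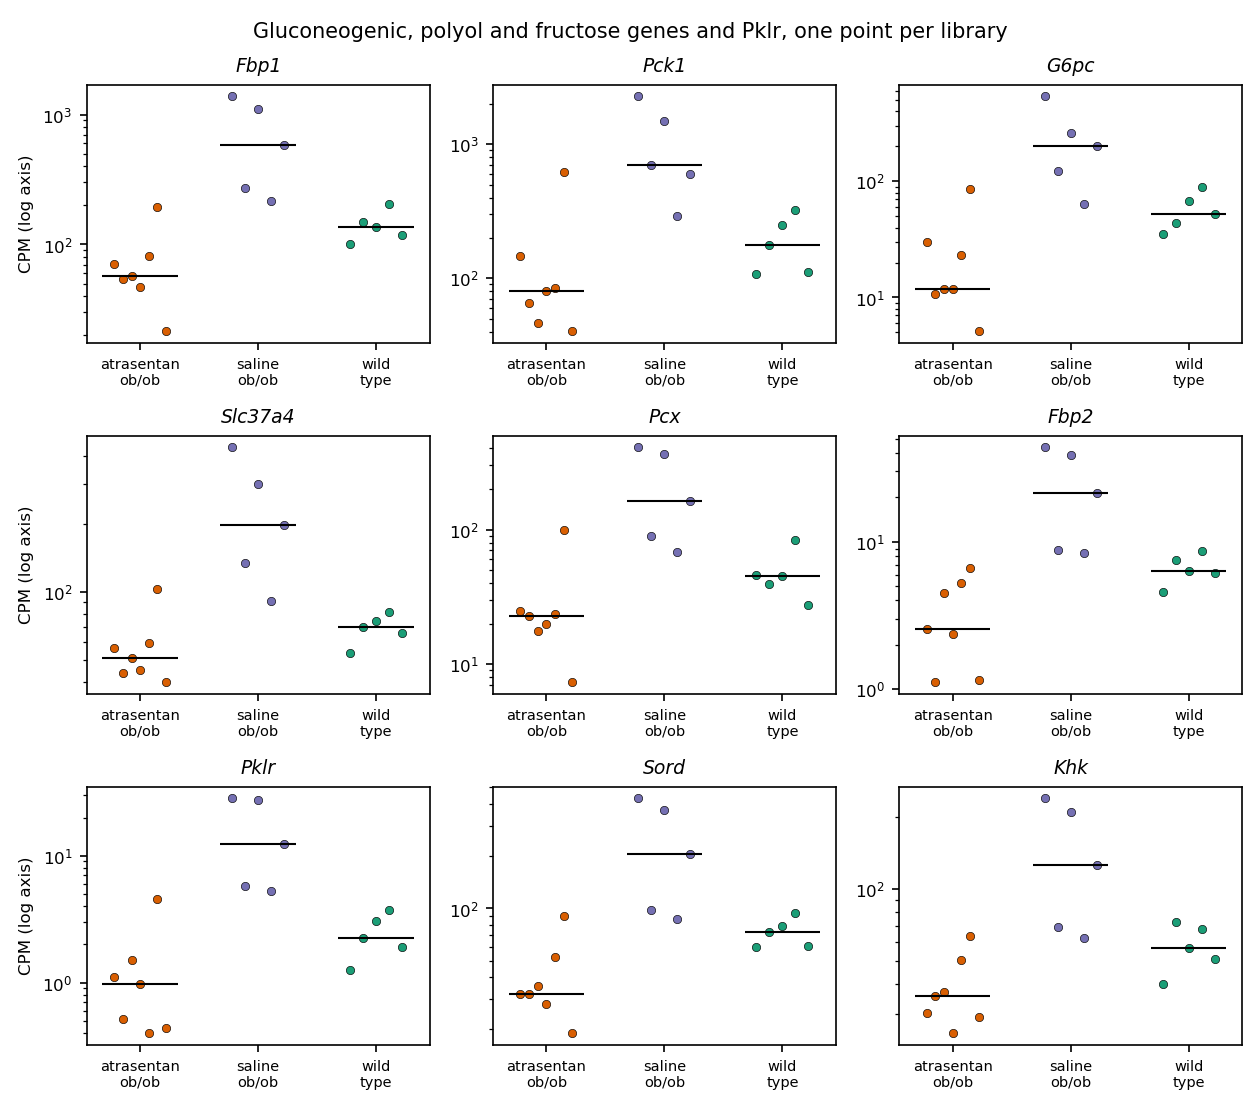
Level in CPM (log axis) of the gluconeogenic genes Fbp1, Pck1, G6pc, Slc37a4, Pcx and Fbp2, of Pklr, and of Sord and Khk in atrasentan-treated ob/ob (n = 7), saline-treated ob/ob (n = 5) and wild type mice (n = 5), 1 point per library with the group median as a line. Saline libraries 1 and 3 are on top in each panel, and 1 atrasentan library lies above the other 6.

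Within glycolysis, the 3 genes that rose were Pklr, Eno1 and Ldha. Pklr stood at 28.4, 5.73, 27.3, 5.27 and 12.4 CPM with saline, against 1.26, 2.23, 3.03, 3.74 and 1.92 CPM in wild type, with no overlap (2.70 ± 0.65, adjusted p = 0.0276). Ldha stood at 519.6, 448, 491, 409 and 446 CPM with saline, against 315, 421, 319, 325 and 352 CPM in wild type (0.42 ± 0.11, adjusted p = 0.0372). Only wild type library 2 reached into the saline range of Ldha. The saline values of Eno1, an enolase with many near copies, were 142, 56.3, 115, 55.3 and 70.7 CPM, against 43.9, 52.4, 54.6, 48.9 and 47.2 CPM in wild type (0.83 ± 0.21, adjusted p = 0.0350), with no overlap.

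Dlat, a subunit of the pyruvate dehydrogenase complex, was the 1 gene of pyruvate entry to rise, with 187, 93.8, 168, 103 and 119 CPM in saline libraries, against 88.6, 91.5, 92.3, 87.7 and 79.0 CPM in wild type. These groups did not overlap, and the log2 fold change was 0.61 ± 0.16 (adjusted p = 0.0406). Pkm and Aldoa had log2 fold changes of 0.21 and 0.37 and did not pass (adjusted p of 0.334 and 0.102). Ldhb, the lactate dehydrogenase that favours using lactate, had one of 1.24 (adjusted p = 0.124). The regulator Txnip had one of 0.05 (adjusted p = 0.888).

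Proximal tubule markers differed between the same libraries. Of the 14, 4 were called higher with saline than in wild type and 0 lower, with a median log2 fold change of 1.95. In the rest of the tubule, 0 of 4 loop of Henle, 1 of 4 distal tubule and 1 of 5 tested collecting duct markers were called higher and 0 lower. Their median log2 fold changes were 0.40, 1.52 and 2.03. Podocyte markers were called lower for 5 of 12 (median -0.99). Of the 8 glomerular endothelium, 6 mesangium, 8 macrophage and 5 red cell markers, 0 were called. Their median log2 fold changes were -0.01, -0.14, 0.23 and -0.24. The part of these cells in the values of the 42 rows was not tested. With the mean of the 14 proximal tubule markers as a covariate, edgeR called 0 of the 42 rows and 30 of all 17766 genes tested. At an unadjusted p under 0.05 that fit gave 4 of the rows (3 higher and 1 lower) and 1512 of all genes. The mean log2 CPM of the markers overlapped between these groups only at saline library 4 (5.74) and wild type library 4 (5.85). The fit thus separates the group from the covariate only weakly. The count of 10 was also set by single libraries: it was 1 without saline library 1, saline library 3, or wild type library 1, 3 or 5. It was 2 without wild type library 2, 3 without wild type library 4, 5 without saline library 5 and 18 without saline library 4. Without saline libraries 1 and 3 together it was 0, with 54 genes called in all.

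With atrasentan, genes of glucose production, of the fructose branch and of pyruvate entry were lower than with saline. Of the 42 rows 18 fell (42.9%) and 3 rose (7.14%), and 21 did not pass. Over all genes tested 18.5% were called lower, 15.3% higher and 33.8% in either direction. The median log2 fold change was -0.35 over the 42 rows and -0.01 over all genes. By role, 6 of 8 genes of gluconeogenesis fell, 2 of 3 of the polyol and fructose branch, 4 of 7 of pyruvate entry, 5 of 18 of glycolysis and 1 of 6 regulators. This comparison and the previous one share the saline libraries, so their opposite directions are not independent.

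Fbp1 fell to a lowest, median and highest level of 21.5, 57.2 and 195 CPM in the 7 atrasentan libraries, against the saline values of 216 to 1382 CPM given above. The groups did not overlap, and the log2 fold change was -3.24 ± 0.49 (adjusted p = 0.000288). G6pc stood at 5.12, 11.9 and 85.4 CPM with atrasentan, against 540.5, 124, 263, 64.4 and 199.8 CPM in the saline libraries. Only atrasentan library 6 reached the lowest saline value of G6pc, and the log2 fold change was -3.23 ± 0.60 (adjusted p = 0.000910).

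Fbp2 stood at 1.12, 2.56 and 6.69 CPM with atrasentan, below all saline values (-2.84 ± 0.47, adjusted p = 0.000437). Pcx (-2.83 ± 0.55, adjusted p = 0.00119), Pck1 (-2.80 ± 0.65, adjusted p = 0.00395) and Slc37a4 (-2.03 ± 0.31, adjusted p = 0.000292) fell as well. The other 2 genes of the role behaved differently. Pck2 rose by 0.35 ± 0.10 on the log2 scale (adjusted p = 0.0133), with 86.1 to 128 CPM with atrasentan, against 77.0 to 94.7 CPM with saline. G6pc3 had a log2 fold change of -0.07 (adjusted p = 0.688).

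Sord stood at 19.0, 32.2 and 90.7 CPM with atrasentan (lowest, median and highest), and only library 6 reached the saline range of 87.5 to 433 CPM (-2.53 ± 0.40, adjusted p = 0.000333). Khk stood at 25.0, 35.8 and 64.0 CPM with atrasentan, against 62.3 to 239.6 CPM with saline (-1.87 ± 0.31, adjusted p = 0.000451). Akr1b3 differed from both, with 17.7, 20.5 and 23.7 CPM with atrasentan, against 14.6 to 19.996 CPM with saline (0.22, adjusted p = 0.148). The enzyme that makes sorbitol was not called in any of the 3 comparisons, while the 2 enzymes downstream of it were called in both comparisons that use the saline group. These genes are not measured alike, as 79.4% of the windows of Akr1b3 were shared with another gene, against 31.3% for Sord and 0% for Khk.

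Among glycolytic enzymes, Pklr stood at 0.398, 0.975 and 4.56 CPM with atrasentan and did not reach the lowest saline value of 5.27 CPM (-3.55 ± 0.59, adjusted p = 0.000454). Ldhb stood at 50.9, 121 and 246 CPM with atrasentan, against 612, 153, 517, 145 and 295 CPM with saline, and its groups overlapped (-1.41 ± 0.42, adjusted p = 0.0162). Gapdh stood at 3.27, 3.71 and 4.52 CPM with atrasentan, against 10.7, 6.79, 10.9, 5.25 and 8.08 CPM with saline, with no overlap (-1.12 ± 0.17, adjusted p = 0.000320). Its counts cover only the part of the gene without copies. Tpi1 (-0.69 ± 0.19, adjusted p = 0.0103) and Eno1 (-0.58 ± 0.19, adjusted p = 0.0287) fell by less.

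Hk1, which commits glucose to metabolism in most cells, was the 1 glycolytic gene to rise against saline, by 0.32 ± 0.10 on the log2 scale (adjusted p = 0.0184). It stood at 268 to 384 CPM with atrasentan, against 208 to 267 CPM with saline, with no overlap but with neighbouring extremes. Aldoa, Pkm and Ldha had log2 fold changes of 0.24, 0.14 and 0.04 and did not pass (adjusted p of 0.134, 0.326 and 0.766).

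At the entry of pyruvate into mitochondria, Pdk2, a kinase that switches off pyruvate dehydrogenase, stood at 78.9, 85.9 and 148 CPM with atrasentan, against 459.7, 139, 379, 165 and 238 CPM with saline (-1.47 ± 0.26, adjusted p = 0.000612). Only the highest atrasentan library lay above the lowest saline library. Mpc2, a subunit of the mitochondrial pyruvate carrier, stood at 59.5, 80.5 and 111 CPM with atrasentan, against 223, 89.4, 191, 91.0 and 129 CPM with saline (-0.77 ± 0.22, adjusted p = 0.0148). Pdha1, the catalytic subunit of pyruvate dehydrogenase, stood at 142, 169 and 208 CPM with atrasentan, against 333, 159, 297, 165 and 211 CPM with saline (-0.47 ± 0.16, adjusted p = 0.0300). For Mpc2 and Pdha1 the groups overlapped at the lower saline libraries. Dlat fell by 0.43 ± 0.15 on the log2 scale (adjusted p = 0.0334).

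Of the regulators, Gys1, the widespread glycogen synthase, stood at 10.4, 15.3 and 31.1 CPM with atrasentan, against 49.0, 19.2, 43.4, 19.8 and 23.4 CPM with saline (-0.90 ± 0.28, adjusted p = 0.0190), with atrasentan library 6 inside the saline range. Txnip stood at 1252, 1715 and 1936 CPM with atrasentan, against 1195, 1563, 1247, 1035 and 1078 CPM with saline (0.38 ± 0.14, adjusted p = 0.0430). Its groups overlapped, and the call was lost in 11 of the 17 fits without 1 library, with an adjusted p of up to 0.103.

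Proximal tubule markers again moved with these genes: 13 of 14 were called lower and 0 higher with atrasentan than with saline, with a median log2 fold change of -3.00. The mean log2 CPM of the list was 2.38 to 5.62 in the atrasentan libraries and 5.74 to 7.91 in the saline libraries, with no overlap. With that mean as a covariate edgeR called 0 of the 42 rows and 22 of all 17766 genes tested. At an unadjusted p under 0.05 that fit gave 11 of the rows, all of them higher with atrasentan, and 2640 of all genes. As the marker means of these groups did not overlap, the fit can hardly tell the group from the covariate. Of the other lists, 7 of 8 glomerular endothelium, 5 of 6 mesangium and 7 of 8 macrophage markers were called higher with atrasentan, as were 4 of 5 red cell markers (median log2 fold change 1.17). Podocyte markers were called lower for 6 of 12 (median -0.89). In the rest of the tubule, 1 of 4 loop of Henle, 1 of 4 distal tubule and 1 of 5 tested collecting duct markers were called lower and 0 higher. Their median log2 fold changes were -1.14, -1.09 and -1.16. The part of these cells in the values of the 42 rows was not tested.

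Pklr, Fbp1, Fbp2, Pck1, G6pc, Slc37a4, Pcx, Pdk2, Sord, Khk, Gapdh, Tpi1 and Pck2 were called in all 17 fits without 1 library. Eno1, Ldhb, Mpc2, Pdha1, Dlat and Gys1 lost their call without saline library 1 (adjusted p of 0.0563 to 0.124) and without saline library 3 (0.0534 to 0.117). Eno1 also lost it without atrasentan library 4 or 7 (0.0512 and 0.0525), Pdha1 without atrasentan library 7 (0.0578), and Dlat without atrasentan library 1, 2, 3, 4 or 7 (0.0504 to 0.0628). Hk1 lost it without saline library 5 (0.0584), where 1 row in place of 3 was called higher. Without saline libraries 1 and 3 together, 10 of the 18 fell: Fbp1, Fbp2, G6pc, Slc37a4, Pcx, Pklr, Sord, Khk, Pdk2 and Gapdh. Hk1 and Aldoa were called higher in that fit. Of all 18380 genes tested in it, 1562 were called lower and 1015 higher.

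**Figure D3:**
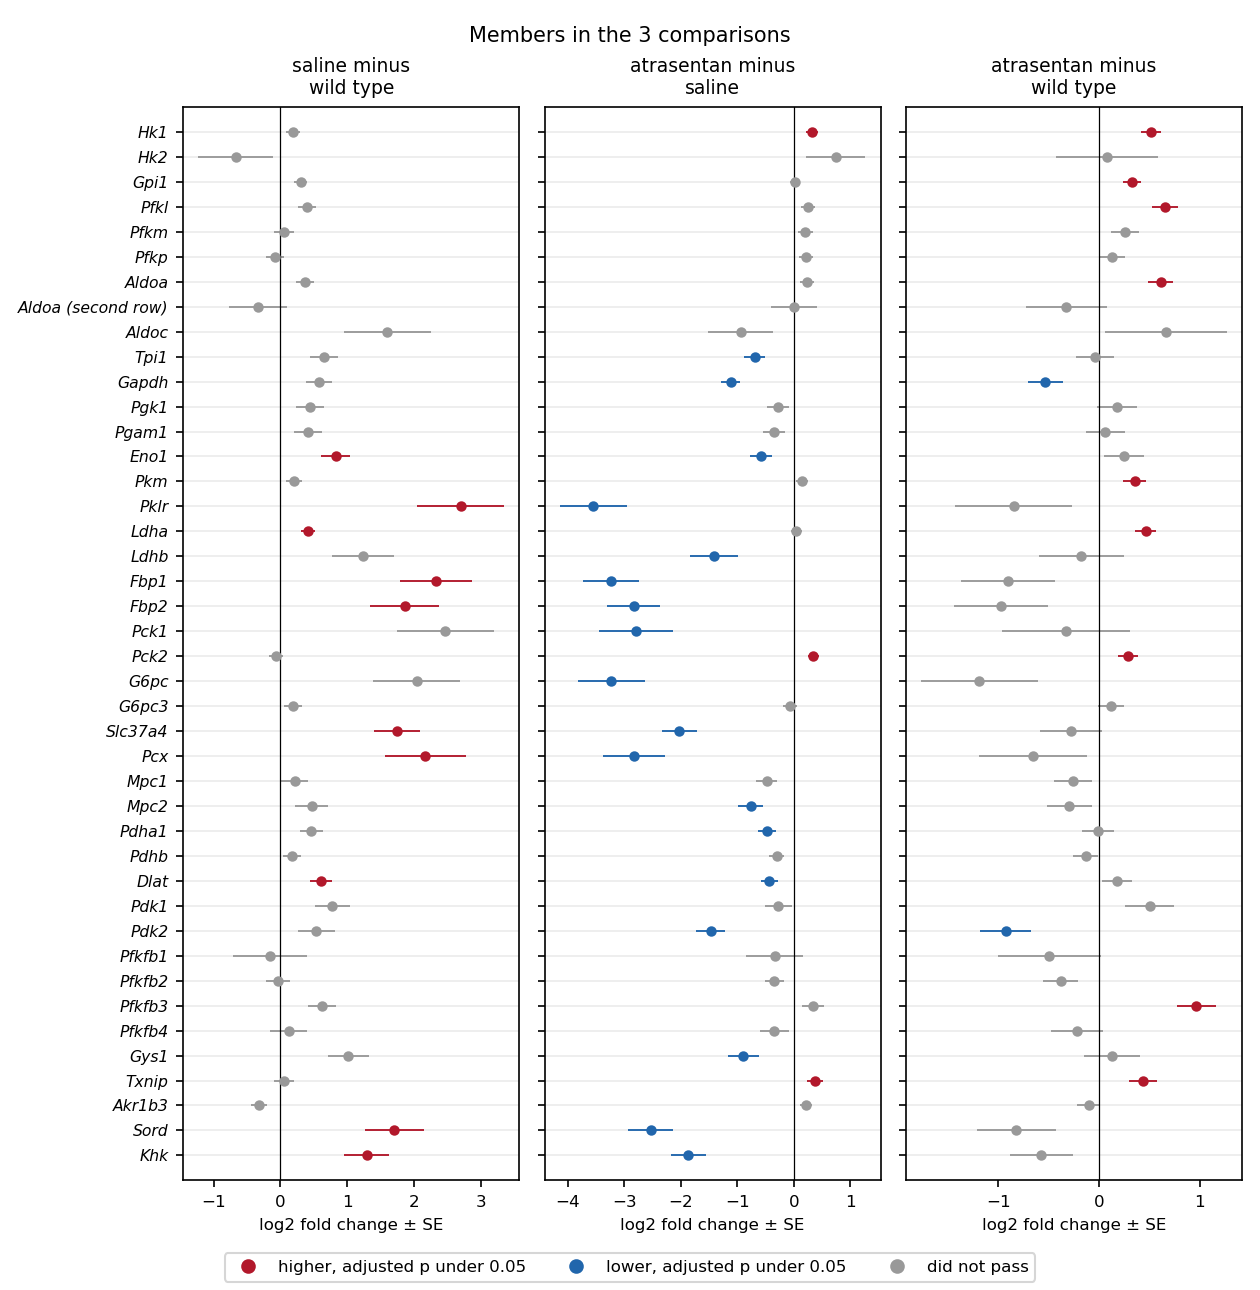
Log2 fold change with its standard error for all 42 rows in the 3 comparisons (saline minus wild type, atrasentan minus saline, atrasentan minus wild type), with calls at an edgeR adjusted p under 0.05 in colour. Points of gluconeogenesis, Pklr, Sord and Khk lie to the right in the first panel and far to the left in the second, and in the third 9 of the 11 called points lie between 0.29 and 0.97.

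Atrasentan-treated ob/ob mice differed from wild type mice in no larger a share of these genes than of all genes, with calls mainly among the glycolytic enzymes. Of the 42 rows 9 rose (21.4%), 2 fell (4.76%) and 31 did not pass, where 14.7% of all genes tested were called higher, 14.5% lower and 29.2% in either direction. The share that rose was not far above that of all genes, so the count says little of these genes as a set, and the median log2 fold change was -0.03 over the 42 rows and -0.01 over all genes. Of the 18 glycolytic rows 6 rose (Hk1, Gpi1, Pfkl, Aldoa, Pkm and Ldha), 1 fell (Gapdh) and 11 did not pass, Tpi1, Eno1, Pgk1, Pgam1, Pfkm and Pfkp among them. The other genes that rose were Pfkfb3, Txnip and Pck2.

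Pfkl, the liver-type phosphofructokinase that many tissues share, stood at 136, 176 and 222 CPM with atrasentan (lowest, median and highest), against 126, 119.8, 118, 116 and 83.8 CPM in wild type. The groups did not overlap, and the log2 fold change was 0.65 ± 0.13 (adjusted p = 0.00108). Aldoa stood at 1007, 1184 and 1338 CPM with atrasentan, against 744, 929, 777, 696 and 685 CPM in wild type, again with no overlap (0.61 ± 0.12, adjusted p = 0.00139).

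Hk1 (0.51 ± 0.10, adjusted p = 0.00105) and Gpi1, which converts glucose 6-phosphate to fructose 6-phosphate (0.33 ± 0.09, adjusted p = 0.0114), rose with no overlap between groups. Ldha (0.46 ± 0.10, adjusted p = 0.00276) and Pkm (0.35 ± 0.11, adjusted p = 0.0237) rose with some overlap. Ldha stood at 408 to 567.7 CPM with atrasentan, against 315 to 421 CPM in wild type. In linear terms these 6 enzymes were 1.25-fold to 1.57-fold higher.

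Pfkfb3, which makes the activator of phosphofructokinase, stood at 41.9, 57.7 and 86.5 CPM with atrasentan, against 45.7, 28.0, 34.6, 24.9 and 23.0 CPM in wild type. Only wild type library 1 reached the atrasentan range, and the log2 fold change was 0.97 ± 0.20 (adjusted p = 0.00152). Txnip, at the values given above with atrasentan, stood at 1191, 1429, 1159, 965 and 1155 CPM in wild type, with an overlap (0.43 ± 0.14, adjusted p = 0.0263). Pck2 stood at 86.1, 106 and 128 CPM with atrasentan, against 94.5, 103, 81.0, 88.6 and 78.9 CPM in wild type (0.29 ± 0.10, adjusted p = 0.0379). The saline mean lay between those of the other groups for each of these 9 genes except Pck2, as for Pfkl, whose saline values were 173, 153, 159, 139 and 124 CPM.

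The 2 genes that fell were Pdk2 and Gapdh. Pdk2 stood at 78.9, 85.9 and 148 CPM with atrasentan, against 188, 172, 262, 186 and 142 CPM in wild type, where only the highest atrasentan library reached above the lowest wild type value (-0.93 ± 0.26, adjusted p = 0.0114). Gapdh stood at 3.27, 3.71 and 4.52 CPM with atrasentan, against 5.89, 4.76, 6.45, 5.99 and 4.75 CPM in wild type (-0.54 ± 0.18, adjusted p = 0.0286), with the limits on its counting given above. No gene specific to glucose production fell beyond the test. Fbp1 stood at 21.5 to 195 CPM with atrasentan, against 99.98 to 204 CPM in wild type (adjusted p = 0.158), and the log2 fold changes of Pck1, G6pc and Sord were -0.33, -1.19 and -0.82 (adjusted p of 0.736, 0.131 and 0.124). Those of Pklr, Ldhb, G6pc3 and Akr1b3 were -0.85, -0.18, 0.12 and -0.10 (adjusted p of 0.289, 0.786, 0.531 and 0.529).

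These values depended on atrasentan library 6: without it 8 rows fell, namely Fbp1, Pck1, G6pc, Pcx, Pklr, Sord, Pdk2 and Gapdh, and 8 rose. Of all 17710 genes tested in that fit, 2752 were called lower and 2608 higher. The share of the 42 rows that fell was not far above that of all genes. Without atrasentan library 1 or 4, or wild type library 1, 3 or 4, 1 row fell, as Gapdh lost its call (adjusted p of 0.0506 to 0.0804). Hk1, Gpi1, Pfkl, Aldoa, Ldha, Pfkfb3 and Pdk2 were called in all 17 fits without 1 library. Pkm lost its call without wild type library 1, 4 or 5 (adjusted p of 0.0507 to 0.0592). Txnip lost it without atrasentan library 4 or 7 or wild type library 3, 4 or 5 (0.0502 to 0.0742), and Pck2 without atrasentan library 1, 6 or 7 or wild type library 3, 4 or 5 (0.0564 to 0.103).

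Of the proximal tubule markers 7 of 14 were called lower and 1 higher with atrasentan than in wild type. Of all 17766 genes tested with their mean as a covariate, 2333 were called higher and 1811 lower. Of the 42 rows, 13 were called higher in that fit and 0 lower (0 lower also at an unadjusted p under 0.05). These 13 held Hk1 (0.64), Pfkl (0.77), Aldoa (0.76), Gpi1, Pkm, Ldha and Pfkfb3, and in addition Pfkm, Aldoc, Eno1, Pdk1, Dlat and Gys1. The first 7 had been called without the covariate too. Only atrasentan library 6 (mean log2 CPM of the markers 5.62) lay in the wild type range of 4.78 to 5.85. The other atrasentan libraries stood at 2.38 to 4.15. That fit therefore rests largely on library 6 to tell the group from the covariate. Macrophage markers were called higher for 7 of 8 (median log2 fold change 1.84), with sums of 328 to 1527 CPM with atrasentan and 193 to 599 CPM in wild type. Mesangium markers were called higher for 4 of 6, with sums of 7497 to 12932 CPM with atrasentan and 4421 to 6352 CPM in wild type, endothelium markers were called higher for 5 of 8, red cell markers were called higher for 2 of 5, and podocyte markers were called lower for 11 of 12. No loop of Henle, distal tubule or collecting duct marker was called, with median log2 fold changes of -0.66, 0.53 and 1.11. The part of all these cells in the rise of the glycolytic enzymes was not tested.

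**Figure D4:**
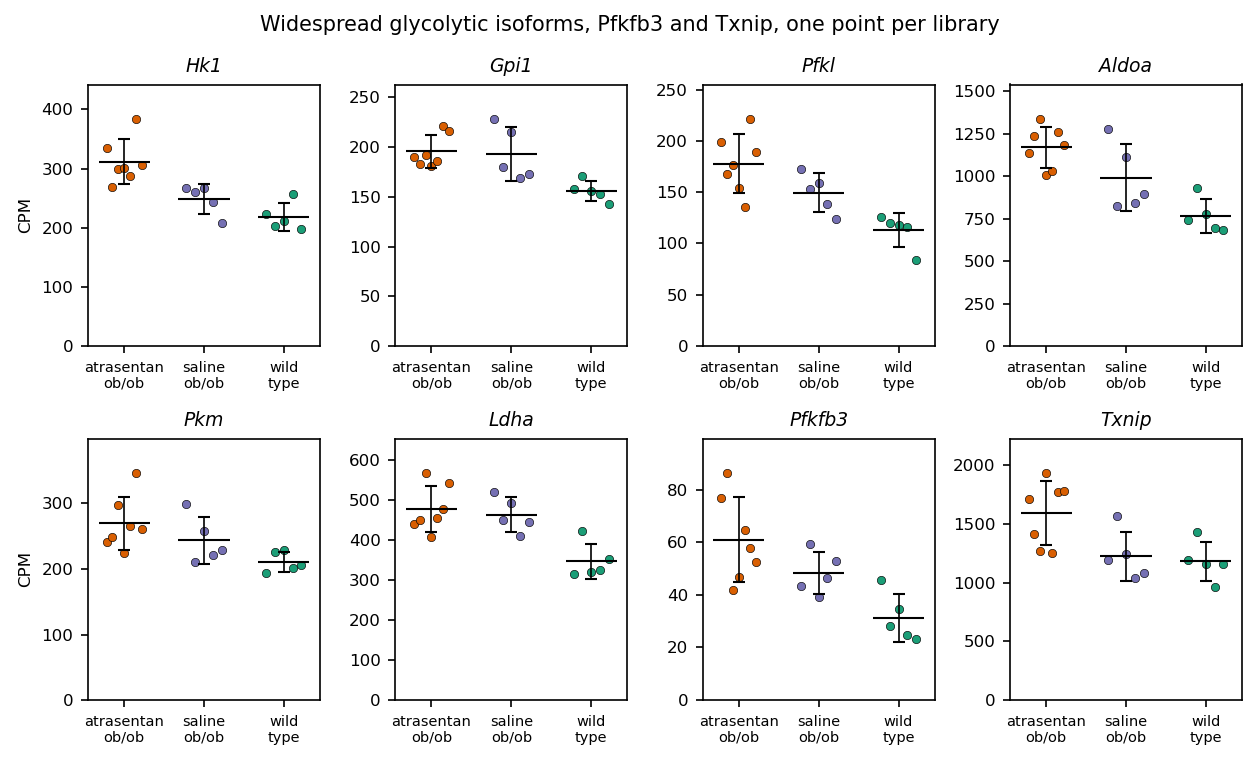
Level in CPM of 6 widespread glycolytic enzymes, Pfkfb3 and Txnip in atrasentan-treated ob/ob (n = 7), saline-treated ob/ob (n = 5) and wild type mice (n = 5), 1 point per library, with the mean and SD as lines and the axis starting at 0. For Hk1, Gpi1, Pfkl and Aldoa every atrasentan library lies above every wild type library.

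Pairs of isoforms from the tubule and from the rest of the cortex were compared within each library as the log2 ratio of their CPM, with 4 pairs shown in 3 comparisons. Exact two-sided permutation tests were used, with p-values adjusted over the 15 tests of this kind that were run. Since both genes are read from 1 library, the ratio hardly depends on the scaling between libraries. A difference in the cells that a library holds does not cancel in it. The Pklr to Pkm ratio was highest in saline libraries 3 (-3.24) and 1 (-3.40), which also had the highest proximal tubule marker means (7.91 and 7.84). The part of tubule cells in the ratios was not tested. The Pklr to Pkm ratio was -8.05 ± 1.05 in atrasentan (SD, n = 7), -4.28 ± 0.99 in saline (n = 5) and -6.50 ± 0.55 in wild type libraries (n = 5). It differed with atrasentan against saline by -3.77 (exact p = 0.00126, adjusted 0.00947) and with saline against wild type by 2.22 (exact p = 0.00794, adjusted 0.0198). These are the smallest p such groups can give, as neither pair of groups overlapped. Atrasentan against wild type differed by -1.55 (exact p = 0.0152, adjusted 0.0265), with an overlap.

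For the carboxykinases, the Pck1 to Pck2 ratio was -0.17 ± 1.30 in atrasentan, 3.30 ± 1.25 in saline and 0.99 ± 0.72 in wild type libraries. It differed by -3.47 for atrasentan against saline and 2.31 for saline against wild type (exact adjusted p of 0.0142 and 0.0265), while atrasentan against wild type did not pass (-1.16, exact adjusted p = 0.111). The G6pc to G6pc3 ratio was -1.08 ± 1.35, 2.31 ± 0.90 and 0.70 ± 0.59 in the atrasentan, saline and wild type groups. All 3 of its differences passed, at -3.39, 1.61 and -1.78 for atrasentan against saline, saline against wild type and atrasentan against wild type (exact adjusted p of 0.0142, 0.0316 and 0.0316).

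The lactate dehydrogenase ratio, Ldhb to Ldha, moved least. It was -2.13 ± 0.91 in atrasentan, -0.67 ± 0.84 in saline and -1.27 ± 0.36 in wild type libraries. It passed for atrasentan against saline (-1.46, exact adjusted p = 0.0316) and not for saline against wild type (0.60, 0.183) or atrasentan against wild type (-0.86, 0.0962). Without 1 library, the ratios of Pklr to Pkm kept their calls in all 3 comparisons, with adjusted p of at most 0.0496. Several calls of the other ratios were lost without 1 library, as for Ldhb to Ldha with atrasentan against saline, where the adjusted p ran up to 0.0606.

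**Figure D5:**
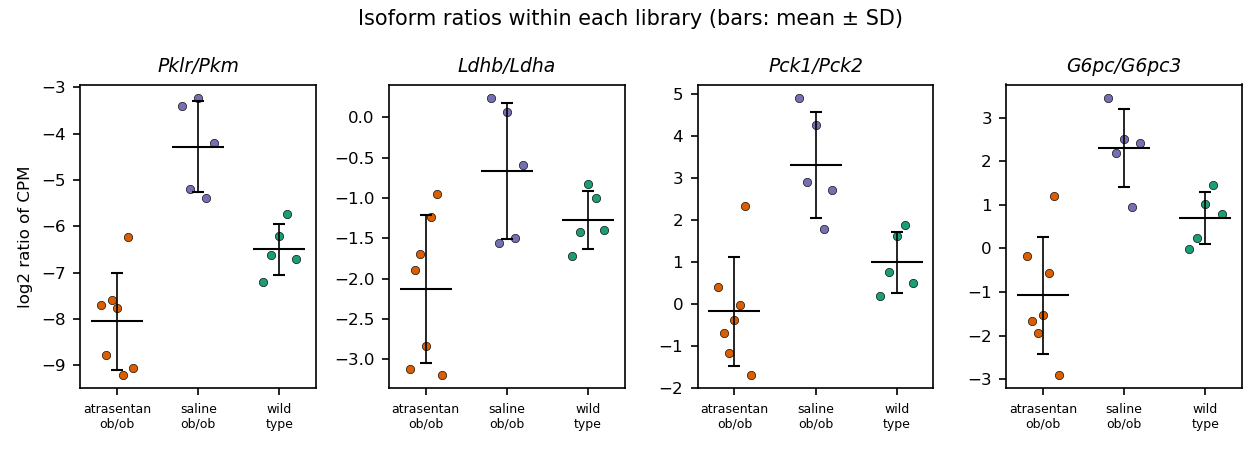
Log2 ratio of the CPM of the tubule isoform over the widespread isoform within each library, for 4 pairs in atrasentan-treated ob/ob (n = 7), saline-treated ob/ob (n = 5) and wild type mice (n = 5), with mean and SD as lines. In all 4 pairs shown the mean is lowest with atrasentan and highest with saline, and the groups with atrasentan and saline do not overlap for Pklr to Pkm.

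Libraries of 1 group differed far more in the tubule-type genes than in the glycolytic ones. The highest library stood above the lowest by a median of 7.53-fold over the 8 genes of gluconeogenesis with atrasentan, 5.61-fold with saline and 1.97-fold in wild type. For the 18 glycolytic rows the same medians were 1.497-fold, 1.90-fold and 1.41-fold. In 9 tubule-type genes chosen after their values were seen (Fbp1, Fbp2, Pck1, G6pc, Slc37a4, Pcx, Pklr, Sord and Khk), atrasentan library 6 was the highest of its group in 9 of 9, saline library 1 in 9 of 9 and wild type library 4 in 8 of 9. Saline library 4 was the lowest of its group in 9 of 9. The same libraries had the highest mean proximal tubule marker level of their groups with atrasentan (5.62) and in wild type (5.85), and with saline the mean was 7.84 in library 1 and 7.91 in library 3.

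Among 45 tested genes of the wider pathway, a list of 46 symbols outside the 41, saline against wild type gave 4 higher and 1 lower, where 3.21% and 1.91% of all genes tested were called higher and lower. Galm, a mutarotase of galactose and glucose, rose by 1.70 on the log2 scale (adjusted p = 0.0339), as did Akr1a1, an aldehyde reductase (0.65, 0.0467), and Pygl, the liver-type glycogen phosphorylase (0.62, 0.0463). Gfpt2, which opens the hexosamine branch, fell (-0.84, 0.0374). These 4 were called in 4 to 10 of the 17 fits without 1 library.

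Atrasentan against saline gave 4 higher and 16 lower of the 45, where 15.3% and 18.5% of all genes tested were called higher and lower. Among the larger falls were those of Mlxipl, the glucose-sensing factor named above (-3.41 ± 0.51, adjusted p = 0.000260), the liver-type glycogen synthase Gys2 (-2.84), the triokinase Tkfc of fructose breakdown (-2.28), Galm (-2.24) and the lactate transporter Slc16a1 (-2.14). Ldhd, Eno2, Pdp2, Pgm1, Dld, Akr1a1, Gbe1, Ugp2 and Pdhx also fell. The 4 that rose were Pygm (0.57), Pygb (0.44), Gyg (0.42) and G6pdx (0.27), 3 of glycogen metabolism and the entry enzyme of the pentose phosphate pathway. Mlxipl stood at 1.32, 2.97 and 14.5 CPM with atrasentan (lowest, median and highest), against 70.0, 25.3, 76.2, 24.7 and 46.4 CPM with saline, with no overlap.

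Atrasentan against wild type gave 8 higher and 6 lower of the 45, shares close to the 14.7% and 14.5% of all genes tested that were called higher and lower. Mlxipl (-2.04 ± 0.49, adjusted p = 0.00507), Slc16a1 (-1.54, 0.0106) and Tkfc (-1.15, 0.0194) fell. Slc16a1 lost its call without wild type library 4 (adjusted p = 0.0628). Hk3, a hexokinase of white blood cells, rose by 1.74 ± 0.49 (adjusted p = 0.0127) and Aldh2, the mitochondrial aldehyde dehydrogenase, by 0.96 (0.000494). Gfpt2 and Glo1 were also lower, and Pygb, Pygl, Gyg, G6pdx, Pgd and Pdp1 were also higher. The median log2 fold changes of the 45 genes were 0.28 for saline against wild type, -0.23 for atrasentan against saline and -0.05 for atrasentan against wild type.

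The remaining symbols, Pgk1, Pgam1, Pfkm, Pfkp, Aldoc and Hk2 of glycolysis, Mpc1, Pdhb and Pdk1 of pyruvate entry, and Pfkfb1, Pfkfb2 and Pfkfb4 of the regulators, were called in none of the 3 comparisons. Their adjusted p were 0.0556 (Mpc1, atrasentan against saline) or higher.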

How the data were processed

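Per the labels' protocols, poly(A) RNA was made into unstranded TruSeq libraries and read as single 50-base ends. The authors deposited raw counts per gene, and the submitters' processing notes name the build GRCm38 and the tools STAR, HTSeq, DESeq2, limma and edgeR, with no version. No source used here gives the annotation release or the strand setting. The 5 lines of the count table that name no gene were kept out of library sizes and tests. Reads with several alignments, which made up 23.4% to 31.8% of a library, were not assigned to genes. The authors' deposited table of log2 values was used for 1 alternative only, and its transform is not given.

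Counts were tested in R 4.3.3 with edgeR 4.0.16 (filterByExpr, TMM factors, quasi-likelihood F test, two-sided, all 17 libraries in 1 fit, biological coefficient of variation 0.312). P-values were Benjamini-Hochberg adjusted over 17766 genes, with a threshold of 0.05 and no minimum fold. Standard errors are the log2 fold change over the square root of F. Ratios used log2 CPM with a prior count of 2. Low-count filters use a minimum count of 10. The 41 within-group pairs of libraries differed by far more than sampling noise (chi-square per degree of freedom 23.9 to 247), so each was counted once. Replicate numbers follow the order of the samples and pair nothing. Simulated counts with known changes were used to test the fit. Alternatives were DESeq2 1.42.0, limma 3.58.1 (voom, and on the authors' log2 values), other scalings and filters, the 2 groups alone, a proximal tubule covariate and libraries left out. Gene symbols and exon lengths came from GENCODE release M21 of GRCm38, and promoters from RefSeq.

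The members and lists were chosen with earlier results of these data known. Fold changes are given for genes called in a comparison, for both isoforms of the 4 ratios shown, for Akr1b3, Sord and Txnip, and values in every library for up to 3 called genes a role with the largest change. Wider-pathway genes are named where called, with values for up to 6. A further ratio and some genes of the wider list are not reported here.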

Additional observations from a re-analysis of the deposited data

Results flagged for a closer look

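In 12 of 126 groups of libraries tested, 1 library stood far from the others of its group by Dixon's test at its 95% level. Chance would give about 1 in 20 only for independent, normally distributed values. The test was run on CPM without logs and over genes that vary together, so 12 of 126 cannot be set against that rate. Atrasentan library 6 accounted for 9 of the 12. It stood at 4.56 CPM for Pklr (the other 6 at 0.398 to 1.501), 195 CPM for Fbp1 (21.5 to 82.1), 619 CPM for Pck1 (40.2 to 145), 85.4 CPM for G6pc (5.12 to 30.001) and 103 CPM for Slc37a4 (39.8 to 59.6). It also stood at 98.5 CPM for Pcx (7.36 to 24.9), 129.7 CPM for Dlat (86.1 to 103), 32.1 CPM for Pdk1 (17.2 to 20.4) and 31.1 CPM for Gys1 (10.4 to 16.7). Its mean proximal tubule marker level was 5.62 on the log2 CPM scale, against 2.38 to 4.15 in the other 6 atrasentan libraries.

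The other 3 were single genes. Wild type library 5 was low for Pfkl at 83.8 CPM (the other 4 at 116 to 126). Atrasentan library 3 was high for G6pc3 at 45.0 CPM (33.6 to 38.4), and atrasentan library 5 was low for Pfkfb4, at 2.17 CPM (5.80 to 8.47). The cause of these departures was not tested.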

How the results depend on the processing

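No paired analysis was possible because the labels give no replicate numbers shared between groups. For saline against wild type, 2000 genes were called with DESeq2, 550 with limma-voom, 1430 with the 2 groups alone, 30 with the proximal tubule covariate and 54 without saline libraries 1 and 3. Of the 42 rows, 21 were then called higher with DESeq2, 4 with limma-voom, 4 on the authors' log2 values, and 0 with the covariate or without saline libraries 1 and 3. Leaving out 1 library gave 216 to 1523 genes called and 1 to 18 rows higher. For atrasentan against saline, 22 genes were called with the covariate and 2577 without saline libraries 1 and 3. Rows called higher were 0 with the covariate and 1 to 3 without 1 library, and rows called lower were 0 with the covariate, 10 without saline libraries 1 and 3 and 12 to 20 without 1 library. For atrasentan against wild type, rows called lower were 1 with no filter on low counts, 4 with the 2 groups alone, 0 with the covariate and 1 to 8 without 1 library.

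Without saline libraries 1 and 3 these ratio differences no longer passed: Pck1 to Pck2 (1.47) and G6pc to G6pc3 (1.16) for saline against wild type, and Ldhb to Ldha (-0.91) for atrasentan against saline. Without 1 library, the difference ran from 1.32 to 1.95 for G6pc to G6pc3 (saline against wild type), and from -1.68 to -1.23 for Ldhb to Ldha (atrasentan against saline). For atrasentan against wild type it ran from -1.06 to -0.68 for Ldhb to Ldha, -1.58 to -0.91 for Pck1 to Pck2 and -2.16 to -1.48 for G6pc to G6pc3. Each of these crossed the threshold in some fits.

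Signs turned mainly under the proximal tubule covariate. For atrasentan against saline the marker means of the groups did not overlap, so that fit can hardly tell the group from the covariate. For saline against wild type they overlapped only at saline library 4 and wild type library 4. For atrasentan against wild type they overlapped only through atrasentan library 6. Group and covariate are thus poorly separated there too. For saline against wild type the log2 fold changes became -0.074 for Fbp2, -0.0077 for Pcx, -0.058 for Pkm, -0.31 for Ldhb, -0.24 for G6pc and -0.038 for G6pc3. For atrasentan against saline they became 0.24 for Tpi1, 0.47 for Eno1, 1.01 for Ldhb, 0.16 for Fbp2, 0.39 for Pck1, 0.11 for G6pc, 0.46 for Pcx, 0.29 for Mpc2 and 0.39 for both Pdha1 and Dlat. They also became 0.68 for Gys1, 0.092 for Sord, 0.038 for Khk, 0.31 for G6pc3, -0.0097 for Akr1b3 and 0.25 for Galm. For atrasentan against wild type they became 0.24 for Pklr, 0.70 for Ldhb, 0.69 for Pck1 and 0.12 for Sord. None of these turned values passed the test. Without saline libraries 1 and 3, Pck2 (0.013) and G6pc3 (-0.068) turned for saline against wild type, and G6pc3 (0.18) for atrasentan against saline. Txnip for saline against wild type was -0.026 with upper-quartile scaling and -0.052 to 0.13 without 1 library. For atrasentan against saline, Ldha ran from -0.0031 to 0.10 and G6pc3 from -0.17 to 0.044 without 1 library. The cause was not tested.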
